A study of Homo sapiens with 8 samples.

Results

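The genes described here are the receptors EGFR, ERBB2, ERBB3 and MET and the EGF-like ligands AREG, EREG, HBEGF, TGFA, BTC and EPGN. They were chosen by name as ERBB family receptors, ligands of those receptors and the related receptor MET, and all 10 were found among the 61228 gene names of the count tables. These genes and the lists used below were chosen with earlier results of these data known. Shares of calls set beside those of all tested genes are therefore descriptions and no test of the family. H1975 and HCC44, human lung cancer lines that the labels call wild type, were sequenced for RNA after 96 hours with the degrader ACBI1 or with its solvent DMSO. The 4 groups were H1975 with DMSO, H1975 with ACBI1, HCC44 with DMSO and HCC44 with ACBI1, and each held 2 libraries. The concentration of ACBI1 is labelled as 1 mM, which is far above what is usual for a degrader, so the unit is uncertain. All groups were grown in the same serum-containing medium, and serum itself can carry growth factors. Each group is bulk RNA of a single established line, and nothing in the labels says whether the replicates came from separate cultures, so p-values measure only the spread between these libraries, which may be technical.

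ERBB receptors are membrane tyrosine kinases that signal as dimers. The ligands named here are made as membrane-anchored precursors that proteases such as ADAM17 release, and they bind EGFR. ERBB2 has no known ligand and serves as a dimer partner, ERBB3 binds neuregulins and has little kinase activity of its own, and MET is the receptor of hepatocyte growth factor (HGF). Downstream, the ERK and PI3K cascades are engaged, and EGFR is among the genes most often mutated in lung adenocarcinoma. H1975 is known as an EGFR-mutant line, and counts per gene do not separate mutant from normal alleles. ACBI1 recruits the VHL ubiquitin ligase to the SWI/SNF chromatin remodelling proteins SMARCA2, SMARCA4 and PBRM1 and so has them degraded.

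EPGN, EREG, AREG and BTC lie next to each other on human chromosome 4, between positions 74308473 and 74794686 of build GRCh38 (GENCODE release 29). These 486 kb hold 6 annotated genes, and the 4 ligand genes are the protein-coding ones. EPGN, EREG and AREG are on the plus strand and BTC is on the minus strand. HBEGF lies on chromosome 5 (140332843 to 140346631), TGFA on chromosome 2 (70447280 to 70554193), EGFR on chromosome 7 (55019021 to 55211628), MET on chromosome 7 (116672390 to 116798386), ERBB2 on chromosome 17 (39687914 to 39730426) and ERBB3 on chromosome 12 (56076799 to 56103505). EGFR shares 1.5% and ERBB2 7.4% of exon bases with genes on the opposite strand, and ERBB3 shares 0.3% with another gene on its own strand. The other 7 share none, so overlap is a minor concern for these counts.

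The 250 bases before the RefSeq start of AREG, EREG, EPGN and HBEGF are shown because these ligands have the most contrasting levels below. They are written 5′ to 3′ on the gene's own strand, and capitals mark matches to 4 motifs searched on both strands. The TATA box motif was spelled TATAAA. The cyclic AMP response element, bound by CREB family factors, was spelled TGACGTCA. The motif of the AP-1 factors was spelled TGANTCA, where N is any base. The GC box, bound by SP1 family factors, was spelled GGGCGG.
AREG (chr4:74444886-74445135, plus strand): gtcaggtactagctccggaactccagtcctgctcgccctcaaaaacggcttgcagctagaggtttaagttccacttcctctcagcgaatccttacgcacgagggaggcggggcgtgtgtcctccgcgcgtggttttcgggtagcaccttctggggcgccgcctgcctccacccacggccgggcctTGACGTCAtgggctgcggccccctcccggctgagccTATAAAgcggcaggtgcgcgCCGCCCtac
EREG (chr4:74364895-74365144, plus strand): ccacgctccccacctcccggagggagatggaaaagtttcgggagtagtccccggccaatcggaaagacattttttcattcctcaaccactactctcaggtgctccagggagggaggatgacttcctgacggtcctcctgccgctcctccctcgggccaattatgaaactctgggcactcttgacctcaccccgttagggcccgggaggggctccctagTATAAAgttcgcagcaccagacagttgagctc
EPGN (chr4:74308220-74308469, plus strand): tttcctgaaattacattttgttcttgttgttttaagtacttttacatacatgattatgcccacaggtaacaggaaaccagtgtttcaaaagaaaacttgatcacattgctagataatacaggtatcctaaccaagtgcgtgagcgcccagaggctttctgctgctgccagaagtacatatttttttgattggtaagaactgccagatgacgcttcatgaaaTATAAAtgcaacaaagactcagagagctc
HBEGF (chr5:140346604-140346853, minus strand): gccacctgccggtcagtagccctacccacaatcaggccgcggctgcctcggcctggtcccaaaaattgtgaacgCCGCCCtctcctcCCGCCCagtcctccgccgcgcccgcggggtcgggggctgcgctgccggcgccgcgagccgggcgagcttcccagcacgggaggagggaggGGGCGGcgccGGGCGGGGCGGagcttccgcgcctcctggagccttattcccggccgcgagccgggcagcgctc
AREG, EREG and EPGN each hold a TATA box motif, which begins 29, 32 and 29 bases before the start. AREG also holds the cyclic AMP response element, 65 to 58 bases before its start, and 1 GC box. HBEGF holds 5 GC box matches, the 2 nearest the start overlapping each other, and none of the other motifs. BTC, which lies in the same cluster, has no match to any of the 4. In windows of the same length over 35116 RefSeq starts (GRCh38.p14), 10.7% held the TATA box motif, 1.65% the cyclic AMP response element, 6.57% the AP-1 motif and 42.6% the GC box. None of these 5 windows holds the AP-1 motif. A match is a description of the letters and not of a bound site. RefSeq windows were matched for 9 of the 10 genes.

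Counts assigned to genes ranged from 62467286 to 70455517 per library, and the 10 genes took 0.0844 to 0.116% of them. Levels are CPM, counts scaled to a common library size, with TMM factors, which equalise the bulk of genes between libraries. Values are given per library or as mean ± SD with n = 2. A gene was called where the Benjamini-Hochberg adjusted p of edgeR's quasi-likelihood test, fitted to all 8 libraries and adjusted over 21307 tested genes, was under 0.05. All 10 genes passed the filter on low counts, EPGN only through HCC44. Against TMM, unscaled library totals raised the median gene by 0.203 on the log2 scale for ACBI1 in H1975, by 0.091 for ACBI1 in HCC44 and by 0.116 for H1975 against HCC44, and lowered it by 0.112 for the difference in response. With library totals the share of calls that were rises went from 46.6 to 72.3% in H1975. In HCC44 it went from 50 to 60.5%, while the share of positive differences fell from 54.9 to 40.5%. Every direction given here is relative to TMM scaling. All 6 epithelial markers examined (EPCAM, CDH1, KRT7, KRT8, KRT18 and KRT19) were present in both lines. In H1975 their summed level was 5140 to 5390 CPM with DMSO but 2330 to 2810 CPM with ACBI1. In HCC44 it was 940 to 980 CPM with DMSO but 1200 to 1660 CPM with ACBI1, where KRT7 went from 441 to 936 CPM and the other markers went both ways (KRT8 from 217 to 151 CPM, EPCAM from 10.6 to 18.9 CPM). Summed immune markers were at 0.912 to 3.69 CPM over all libraries with PTPRC and CD3E under 0.1 CPM, and endothelial markers at 0.625 to 4.01 CPM. Fibroblast markers summed to 25.5 to 92.7 CPM in every group except HCC44 ACBI1, where COL1A1 brought them to 207 to 411 CPM, and DCN was at 0 counts in all libraries. The part of these shifts in the results below was not tested. Of 5 lung lineage markers, NKX2-1 averaged 25.9 CPM in H1975 DMSO but 0.0159 CPM in HCC44 DMSO, while SLC34A2 averaged 0.0836 CPM and 2.61 CPM, and the list summed to 1.46 to 29.6 CPM over all libraries.

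**Figure D1:**
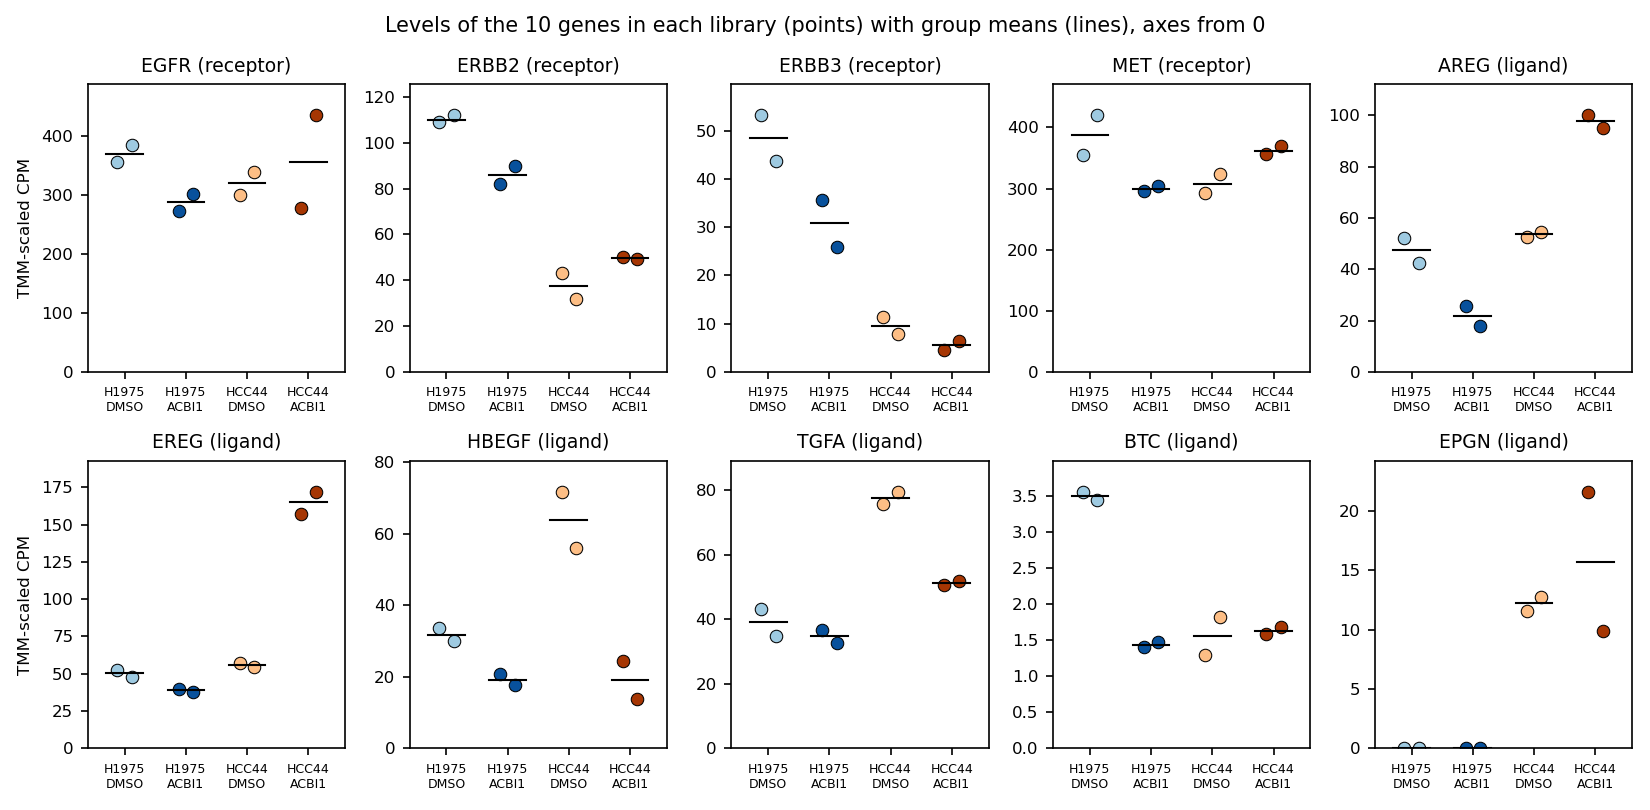
TMM-scaled CPM (vertical axes, each from 0) of the 10 genes in the 8 libraries, by group; points are libraries and lines are group means. AREG and EREG are highest in HCC44 with ACBI1, HBEGF and TGFA are highest in HCC44 with DMSO, ERBB2, ERBB3 and BTC are highest in H1975 with DMSO, and EPGN is near 0 in H1975.

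The first comparison asks how receptor and ligand transcripts differ between the lines before degradation, with H1975 DMSO set against HCC44 DMSO. H1975 carried more ERBB2, ERBB3, MET and BTC, and HCC44 carried more HBEGF, TGFA and EPGN. EGFR, AREG and EREG were not called. That is 7 of 10 genes called, of which EPGN could be tested only because HCC44 held its counts, beside 67.9% of all tested genes (36.4% higher and 31.6% lower in H1975), so the share of calls was near the background. The median log2 difference was 0.95 over the 4 receptors and -0.59 over the 6 ligands, against 0.08 over all tested genes. The ligand median includes EPGN, so it rests in part on a gene tested only through HCC44. Of the remaining ligands, HBEGF was at -1.01, TGFA at -0.99, AREG at -0.18, EREG at -0.15 and BTC at 1.16.

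Among the receptors, ERBB3 showed the widest gap. It was at 53.2 and 43.8 CPM in the H1975 DMSO libraries and at 11.3 and 7.74 CPM in the HCC44 DMSO libraries. The H1975 libraries were both far above the HCC44 libraries, with a log2 difference of 2.35 ± 0.24 (SE) and an adjusted p of 1.53e-05. ERBB2, the ligandless dimer partner, was at 109 and 112 CPM in H1975 and at 43 and 31.9 CPM in HCC44. The groups did not overlap, and the difference was 1.56 ± 0.13 (adjusted p 1.13e-06). MET was at 355 and 420 CPM in H1975 and at 292 and 324 CPM in HCC44, a difference of 0.33 ± 0.10 (adjusted p 0.0115). The MET groups lay close together, and the call was lost without H1975 DMSO replicate 2 (0.15) and without HCC44 DMSO replicate 1 (0.25). EGFR was at 357 and 385 CPM in H1975 and at 301 and 340 CPM in HCC44. The EGFR groups did not overlap, but the difference of 0.21 ± 0.18 was not called (adjusted p 0.323), so a higher EGFR transcript level in the EGFR-mutant line was not detectable at this replication.

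Among the ligands, EPGN (epigen) separated the lines most. It had 3 counts over the H1975 DMSO libraries and 1543 over the HCC44 DMSO libraries, where it was at 11.6 and 12.7 CPM. The ratio of counts scaled to library size was 536, with an exact 95% interval of 183 to 2600 that covers counting error only. HBEGF, a heparin-binding ligand, was at 33.6 and 30 CPM in H1975 and at 71.7 and 56 CPM in HCC44. TGFA, transforming growth factor alpha, was at 43.2 and 34.8 CPM in H1975 and at 75.8 and 79.5 CPM in HCC44. Every HCC44 DMSO library was above every H1975 DMSO library for these 3 ligands. The differences, H1975 minus HCC44, were -1.01 ± 0.24 for HBEGF (adjusted p 0.00479) and -0.99 ± 0.12 for TGFA (adjusted p 1.84e-05). BTC (betacellulin) went the other way, at 3.56 and 3.45 CPM in H1975 and 1.3 and 1.82 CPM in HCC44 (1.16 ± 0.23, adjusted p 0.00104). AREG (amphiregulin) was at 52 and 42.6 CPM in H1975 and 52.7 and 54.4 CPM in HCC44, and its difference of -0.18 ± 0.15 was not called (adjusted p 0.318). EREG (epiregulin) was at 52.4 and 48.1 CPM in H1975 and 57.4 and 54.4 CPM in HCC44, with a difference of -0.15 ± 0.09 (adjusted p 0.165). For AREG and EREG every HCC44 DMSO library was above every H1975 DMSO library, but a baseline difference was not detectable at this replication.

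**Figure D2:**
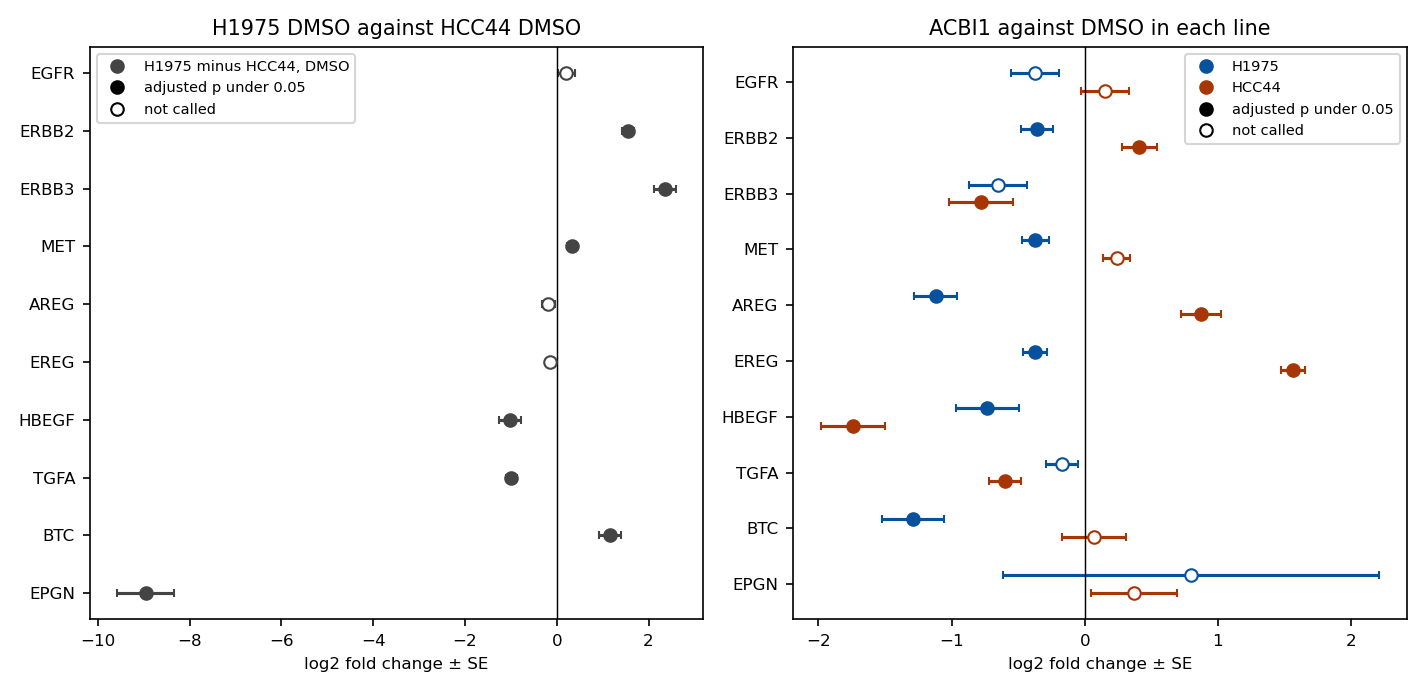
Log2 fold change ± SE (horizontal axes) of the 10 genes for H1975 DMSO against HCC44 DMSO (left, positive is higher in H1975) and for ACBI1 against DMSO in each line (right). Filled points have an adjusted p under 0.05; AREG and EREG lie on opposite sides of 0 in H1975 and HCC44, and HBEGF and ERBB3 are below 0 in both.

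The second comparison asks what ACBI1 did to these transcripts in H1975. AREG and BTC fell most, and EREG, HBEGF, MET and ERBB2 fell by smaller amounts. None of the 10 rose. Thus 6 of 10 were called, all as falls, beside 31.3% of tested genes called in this comparison, 16.7% as falls and 14.6% as rises. The median log2 fold change of the 10 was -0.37, against -0.01 over all tested genes. In bulk RNA, fewer cells with a transcript and less of it per cell cannot be told apart.

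AREG was at 25.6 and 17.9 CPM with ACBI1, below both DMSO libraries, and fell from 47.3 ± 6.6 to 21.7 ± 5.4 CPM (log2 fold change -1.12 ± 0.16, adjusted p 0.000553). BTC was at 1.4 and 1.47 CPM with ACBI1, with replicates close together, and fell from 3.5 ± 0.078 to 1.43 ± 0.052 CPM (-1.29 ± 0.23, adjusted p 0.0022). These were the calls that held with each H1975 library left out in turn and at an adjusted p under 0.01. EREG was at 40.1 and 37.6 CPM with ACBI1, a small step below the DMSO libraries (-0.37 ± 0.09, adjusted p 0.0123). HBEGF was at 20.7 and 17.6 CPM with ACBI1 (-0.73 ± 0.24, adjusted p 0.0477). TGFA was at 36.8 and 32.7 CPM with ACBI1 and overlapped its DMSO libraries (-0.17 ± 0.12, adjusted p 0.315). EPGN had 6 counts with ACBI1 and 3 with DMSO, a ratio of 1.81 with an exact 95% interval of 0.386 to 11.2, so no change was detectable at this depth.

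Of the receptors, MET was at 296 and 304 CPM with ACBI1 (-0.37 ± 0.10, adjusted p 0.0166) and ERBB2 at 82.2 and 90 CPM (-0.36 ± 0.12, adjusted p 0.0487). Both lay below their DMSO libraries by about the same step. ERBB3 was at 35.7 and 25.9 CPM with ACBI1, also below both DMSO libraries, and missed the threshold (-0.65 ± 0.22, adjusted p 0.0521). For ERBB3 the outcome depended on the tool, since DESeq2 called the fall (-0.62, adjusted p 0.0141). EGFR was at 274 and 302 CPM with ACBI1 against 357 and 385 CPM with DMSO, and this was not called (-0.37 ± 0.18, adjusted p 0.159). Several of these values sit at the threshold. The calls of ERBB2 and HBEGF were lost with any H1975 library left out (-0.26 to -0.40 and -0.59 to -0.82), that of MET without DMSO replicate 2 (-0.19), ACBI1 replicate 1 (-0.32) or ACBI1 replicate 2 (-0.37), and that of EREG without DMSO replicate 1 (-0.31), ACBI1 replicate 1 (-0.38) or ACBI1 replicate 2 (-0.30). DESeq2 did not call ERBB2 either (-0.32, adjusted p 0.0938), and its call held under 3 of 15 alternatives. ERBB3 was called without ACBI1 replicate 1 (-0.87), and also with no filter on low counts (-0.66), non-robust dispersion (-0.65) or the H1975 libraries alone (-0.65). The EGFR fall was likewise called with no filter on low counts or with the H1975 libraries alone. With the replicate number as a block, EGFR and ERBB3 were both called as falls. With library totals only AREG (-0.92) and BTC (-1.08) stayed called.

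The third comparison asks the same in HCC44, where the ligands split. EREG and AREG rose, HBEGF and TGFA fell, and of the receptors ERBB2 rose and ERBB3 fell. In all, 6 of 10 were called, 3 as rises and 3 as falls, beside 34.9% of tested genes called, 17.5% as rises and 17.4% as falls. EGFR, MET, BTC and EPGN were not called. The median of the 10 was 0.20, against 0.01 over all tested genes.

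EREG changed most among the rises, from 57.4 and 54.4 CPM with DMSO to 157 and 172 CPM with ACBI1. This was a 2.94-fold rise well outside the spread of the replicates (1.56 ± 0.09, adjusted p 1.95e-06). AREG, its neighbour on chromosome 4, rose from 53.6 ± 1.2 to 97.8 ± 3.7 CPM, with 100 and 95.2 CPM in the ACBI1 libraries (0.87 ± 0.15, adjusted p 0.00157). EPGN, which neighbours EREG on the side away from AREG, was at 21.6 and 9.86 CPM with ACBI1, on either side of its DMSO libraries (0.37 ± 0.32, adjusted p 0.416). BTC was at 1.58 and 1.68 CPM with ACBI1 and overlapped its DMSO libraries (0.07 ± 0.24, adjusted p 0.877). Within the cluster, then, the call was made for 2 of 4 ligand genes, beside 34.9% of all tested genes, and so few genes give no result about the cluster.

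HBEGF fell from 71.7 and 56 CPM to 24.3 and 13.9 CPM, a 3.35-fold drop (-1.74 ± 0.24, adjusted p 0.000781). TGFA fell from 75.8 and 79.5 CPM to 50.6 and 51.7 CPM (-0.60 ± 0.12, adjusted p 0.0023). With ACBI1, HBEGF reached 19.1 ± 7.3 CPM in HCC44 and 19.2 ± 2.2 CPM in H1975, and the libraries of the lines overlapped there, which they did not with DMSO. The calls of EREG, AREG, HBEGF and TGFA held with each HCC44 library left out.

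ERBB2 was at 50.1 and 49.4 CPM with ACBI1, above both DMSO libraries (0.41 ± 0.13, adjusted p 0.027). ERBB3 was at 4.62 and 6.47 CPM, below both DMSO libraries (-0.78 ± 0.24, adjusted p 0.0317). MET was at 356 and 369 CPM, above both DMSO libraries but not called (0.24 ± 0.10, adjusted p 0.0884). EGFR was at 278 and 436 CPM with ACBI1, 1 library below and 1 above the DMSO libraries (0.15 ± 0.18, adjusted p 0.553). EGFR was called as risen without ACBI1 replicate 1 (0.45) and had the opposite sign without ACBI1 replicate 2 (-0.21), and EPGN was called without ACBI1 replicate 2 (0.83) and had the opposite sign without ACBI1 replicate 1 (-0.30). The ERBB2 call was lost without DMSO replicate 2 (0.21), ACBI1 replicate 1 (0.40) or ACBI1 replicate 2 (0.42), and the ERBB3 call without DMSO replicate 1 (-0.49) or ACBI1 replicate 1 (-0.55). The ERBB3 call was also lost with upper-quartile factors (-0.73) or library totals (-0.69), and with the same scalings MET was called as risen (0.29 and 0.33).

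The difference between the responses was tested directly as HCC44 minus H1975. It was called for 5 of 10 genes, all more positive in HCC44, beside 18.6% of tested genes called, 10.2% as positive and 8.4% as negative. AREG had the widest difference, 1.99 ± 0.22 on the log2 scale (adjusted p 0.000361), since it fell in H1975 and rose in HCC44. EREG followed with 1.93 ± 0.13 (adjusted p 2.56e-05), also with opposite directions in the lines. ERBB2 had a difference of 0.77 ± 0.18 (adjusted p 0.0132), with values of -0.36 in H1975 and 0.41 in HCC44 whose own calls depend on single libraries. BTC differed by 1.35 ± 0.34 (adjusted p 0.0181) and MET by 0.60 ± 0.14 (adjusted p 0.0136), each with a fall in H1975 and no call in HCC44. The BTC call was lost without H1975 ACBI1 replicate 1 (1.28), H1975 ACBI1 replicate 2 (1.37) or HCC44 DMSO replicate 1 (1.13). The MET call was lost without H1975 DMSO replicate 2 (0.43), H1975 ACBI1 replicate 1 (0.55), H1975 ACBI1 replicate 2 (0.60) or HCC44 DMSO replicate 1 (0.53).

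The difference was not called for ERBB3 (-0.12 ± 0.33, adjusted p 0.853), HBEGF (-1.01 ± 0.34, adjusted p 0.071), TGFA (-0.44 ± 0.16, adjusted p 0.0886), EGFR (0.52 ± 0.25, adjusted p 0.196) or EPGN (-0.43 ± 1.38, adjusted p 0.885). The fitted falls of HBEGF and TGFA were deeper in HCC44. For HBEGF the outcome depended on the tool, since DESeq2 called the difference (-1.06, adjusted p 0.00385), and it was also called with no filter on low counts (-1.01). TGFA's difference was called with library totals (-0.55). HBEGF's difference was called without HCC44 ACBI1 replicate 1 (-1.47), as was that of EGFR (0.81), and TGFA's was called without H1975 DMSO replicate 1 (-0.60).

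Levels were compared between genes after division by exon length (CPM per kilobase of merged exons). The merged length counts every annotated exon of a gene, whether or not these cells use it. A gene whose merged exons exceed its main transcript is placed too low, so the orders and shares given here depend on this choice. MET was the most abundant of the 10 in H1975 DMSO at 55 ± 6.5 CPM per kilobase, followed by EGFR (29.6 ± 1.6) and AREG (28.7 ± 4), whose ranges overlapped. ERBB2 (10.7 ± 0.17) and HBEGF (10.5 ± 0.84) also overlapped, as did EREG (8.79 ± 0.54) and TGFA (7.86 ± 1.2). ERBB3 (5.36 ± 0.73), BTC (1.24 ± 0.028) and EPGN (0.0126 ± 0.0063) came last, each apart from the next. In H1975 ACBI1 the order began with MET (42.6 ± 0.82), EGFR (23 ± 1.5), AREG (13.2 ± 3.3) and ERBB2 (8.34 ± 0.53), none of which overlapped the next. TGFA (7 ± 0.58), EREG (6.8 ± 0.32) and HBEGF (6.35 ± 0.74) followed, each overlapping its neighbour, with ERBB3 (3.41 ± 0.77), BTC and EPGN below. In HCC44 DMSO the order was MET (43.7 ± 3.2), AREG (32.5 ± 0.74), EGFR (25.6 ± 2.2), HBEGF (21.2 ± 3.7), TGFA (15.6 ± 0.52), EREG (9.78 ± 0.37), EPGN (6.71 ± 0.43), ERBB2 (3.63 ± 0.76), ERBB3 (1.05 ± 0.28) and BTC (0.554 ± 0.13), with no overlap between neighbours. In HCC44 ACBI1, AREG (59.3 ± 2.2) stood above MET (51.5 ± 1.4), and EREG (28.8 ± 1.9) overlapped EGFR (28.5 ± 8.9). TGFA (10.3 ± 0.16), EPGN (8.67 ± 4.6), HBEGF (6.32 ± 2.4) and ERBB2 (4.82 ± 0.044) followed with overlaps between neighbours, and ERBB3 (0.614 ± 0.14) and BTC (0.58 ± 0.025) came last and overlapped. A ligand was thus the most abundant of these transcripts per length only in that group of the 4.

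The summed level of the 6 ligands per kilobase was 57.1 ± 6.6 with DMSO and 33.9 ± 4.9 with ACBI1 in H1975, and 86.4 ± 2.2 with DMSO and 114 ± 7.1 with ACBI1 in HCC44. In HCC44, AREG and EREG together made up 47.8 and 50.2% of that sum in the DMSO libraries and 74.2 and 80.7% in the ACBI1 libraries. HBEGF and TGFA together went from 42.6 ± 2.6% to 14.5 ± 1.1%. In H1975, AREG and EREG made up 65.8 and 65.3% with DMSO and 60.3 and 57.4% with ACBI1, and HBEGF and TGFA 32.2 ± 0.17% and 39.6 ± 1.9%. The ligand mix of HCC44 therefore moved towards AREG and EREG with ACBI1, and that of H1975 moved slightly away from them, with no overlap between libraries in either line. A share within a library does not depend on how libraries are scaled. No test was applied to these shares, which rest on 2 libraries a group. Among EGFR, ERBB2 and ERBB3, EGFR made up 64.8 ± 2% per kilobase in H1975 with DMSO (66.1 ± 2% with ACBI1) and 84.5 ± 4% in HCC44 with DMSO (83.4 ± 4.1% with ACBI1). The receptor mix thus set the lines apart and moved little with ACBI1, apart from ERBB3, which went from 3.49 ± 1% to 1.82 ± 0.06% in HCC44.

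**Figure D3:**
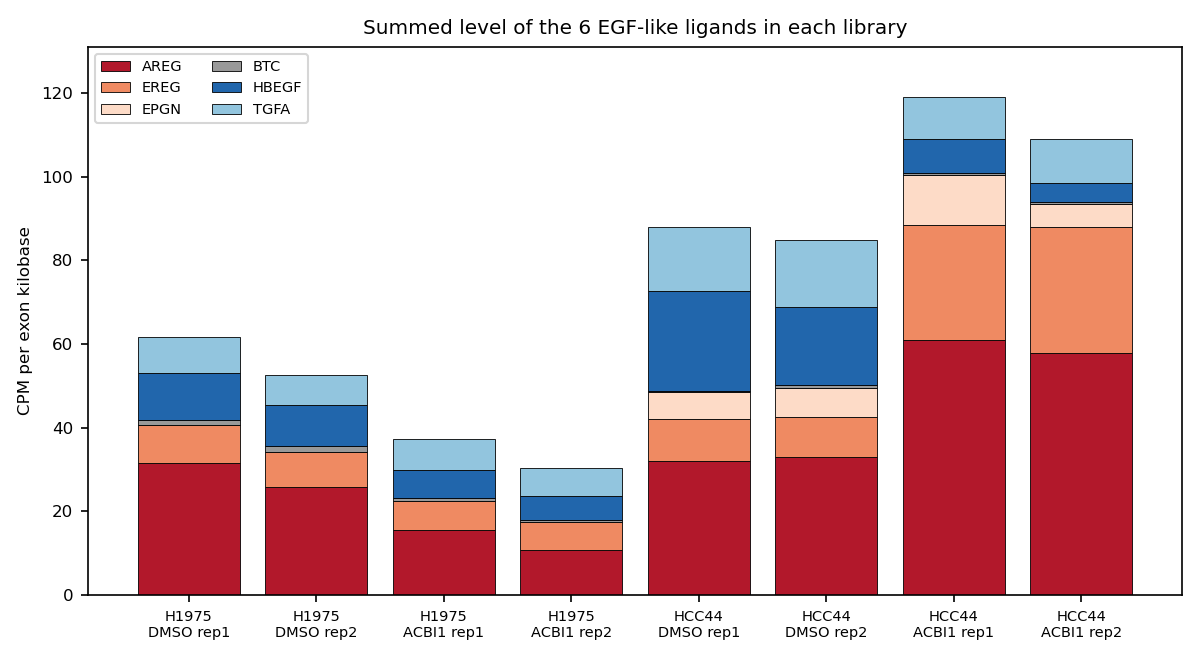
Stacked bars, from 0, of CPM per exon kilobase (vertical axis) of the 6 ligands in each of the 8 libraries. AREG and EREG fill most of the HCC44 ACBI1 bars, where their share is 74.2 and 80.7%, and the H1975 ACBI1 bars are the lowest.

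The surrounding pathway was described with 6 fixed gene lists. Among further family members, ERBB4 had 0 to 2 counts and HGF 0 or 1 count per library, so neither was tested, and the MET ligand was near absent from these cells. NRG1, a neuregulin that binds ERBB3, was not called in H1975, with 37 ± 0.34 CPM before and 33.7 ± 0.82 CPM after ACBI1 (-0.13 ± 0.09, adjusted p 0.28). In HCC44, NRG1 rose from 54.9 ± 4 to 160 ± 0.35 CPM (1.54 ± 0.09, adjusted p 1.36e-06), and the difference between the lines was called (1.67 ± 0.13, adjusted p 4.05e-05). In HCC44, NRG1, like EREG, was higher with ACBI1 while ERBB3, its receptor, was lower. EGF was scarce throughout. In H1975 its counts over the group went from 52 with DMSO to 0 with ACBI1, which is at least 19.2-fold lower when the 0 is replaced by a group floor of 3 counts (adjusted p 0.000417). In HCC44 EGF fell from 88 to 25 counts (-1.80 ± 0.43, adjusted p 0.00914). MST1R, a relative of MET, stood at 72.5 ± 13 CPM in H1975 DMSO against 15.9 ± 0.95 CPM in HCC44 DMSO and rose to 25.2 ± 7.5 CPM with ACBI1 in HCC44 (0.66 ± 0.19, adjusted p 0.0245). Of this list, 5 of 9 genes were tested. Among them 1 fell and none rose in H1975 (20% called, beside 31.3% of all tested genes), and 2 rose and 1 fell in HCC44 (60%, beside 34.9%).

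Of the shedding and HGF activation list, 11 of 12 genes were tested, with 3 falls and no rise in H1975 (27.3% called, beside 31.3% of all tested genes) and 2 rises and 3 falls in HCC44 (45.5%, beside 34.9%). ADAM17, the main protease that releases AREG, EREG, HBEGF and TGFA, was not called in H1975 (94.7 ± 8.4 and 103 ± 9.7 CPM) and rose in HCC44 from 114 ± 6.6 to 173 ± 4.1 CPM (0.60 ± 0.10, adjusted p 0.000909). RHBDF2, an iRhom needed for ADAM17 to mature, rose in HCC44 from 78 ± 1.6 to 122 ± 12 CPM (0.65 ± 0.09, adjusted p 0.000406). RHBDF2 was not called in H1975 (0.25 ± 0.09, adjusted p 0.0621), and its responses were not shown to differ (0.39 ± 0.13, adjusted p 0.0615). The difference in ADAM17 between the lines was called (0.48 ± 0.14, adjusted p 0.0369). ADAM17 shares 13.6% of its exon bases with genes on the opposite strand. ST14 (matriptase), a protease that activates HGF, and its inhibitor SPINT1 both fell in HCC44, ST14 from 26.4 ± 5.4 to 8.65 ± 1 CPM (-1.61 ± 0.22, adjusted p 0.000633) and SPINT1 from 53.5 ± 0.71 to 8.81 ± 0.04 CPM (-2.60 ± 0.20, adjusted p 2.64e-05). SPINT1 also fell in H1975, from 156 ± 31 to 71 ± 20 CPM (-1.13 ± 0.19, adjusted p 0.00204). ST14 and SPINT1 are genes of epithelial cells. Of the epithelial markers in HCC44, KRT8 and KRT19 were lower and EPCAM, CDH1, KRT7 and KRT18 higher with ACBI1, and their part in these falls was not tested.

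Of 17 genes listed as negative regulators, 5 fell and 1 rose in H1975 (35.3% called, beside 31.3% of all tested genes). In HCC44 5 fell and 3 rose (47.1%, beside 34.9%). A negative role is not settled for every gene of the list. These counts include USP8, called as a fall in both lines, and LRIG3, called as a rise in HCC44, for which it is not. ERRFI1 (MIG6), an ERBB kinase inhibitor induced by ERBB signalling, was at 336 ± 26 and 238 ± 29 CPM in H1975 (-0.50 ± 0.17, adjusted p 0.0508) and rose in HCC44 from 583 ± 40 to 913 ± 250 CPM (0.65 ± 0.17, adjusted p 0.0155). Its response differed between the lines (1.15 ± 0.24, adjusted p 0.0112), in the direction of AREG and EREG. LRIG1, which promotes receptor degradation, fell in H1975 from 30.1 ± 8.7 to 14.1 ± 2.9 CPM (-1.09 ± 0.19, adjusted p 0.00224). In HCC44 LRIG1 missed the threshold (-0.33 ± 0.19, adjusted p 0.211), and its responses were not shown to differ (0.76 ± 0.27, adjusted p 0.076). LRIG1 shares 12.9% of its exon bases with the opposite strand. RNF41, a ubiquitin ligase that acts on ERBB3, fell in both lines, with -0.69 ± 0.09 in H1975 (adjusted p 0.000347), and in HCC44 from 110 ± 1.6 to 60.3 ± 4.2 CPM (-0.86 ± 0.09, adjusted p 5.85e-05). Its falls in the lines were not shown to differ (-0.17 ± 0.13, adjusted p 0.402). CBLB, a ligase of the CBL family, fell in HCC44 (-0.89 ± 0.15, adjusted p 0.000977). CBLB was not called in H1975 (-0.28 ± 0.15, adjusted p 0.19), and the lines were not shown to differ (-0.61 ± 0.21, adjusted p 0.0687). SH3KBP1, an adaptor in EGFR endocytosis, fell in H1975 from 234 ± 14 to 122 ± 10 CPM (-0.94 ± 0.10, adjusted p 0.000113), and its HCC44 fall was smaller (-0.34 ± 0.10, adjusted p 0.0231) with the difference called (0.59 ± 0.14, adjusted p 0.0164). At baseline CBLC, a CBL family ligase, reached 33.5 ± 8.9 CPM in H1975 against 0.0944 ± 0.066 CPM in HCC44.

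Of 28 adaptors and kinases, 2 rose and 8 fell in H1975 (35.7% called, beside 31.3% of all tested genes) and 5 rose and 7 fell in HCC44 (42.9%, beside 34.9%), with medians of -0.18 and -0.05. In HCC44 the largest fall among its called genes was in MAP2K1 (MEK1), from 155 ± 0.66 to 87.7 ± 1.5 CPM (-0.82 ± 0.09, adjusted p 5.7e-05), and MAP2K1 also fell in H1975 (-0.37 ± 0.09, adjusted p 0.008). GAB2, an adaptor, rose in H1975 (0.41 ± 0.14, adjusted p 0.0448) and fell in HCC44 (-0.72 ± 0.14, adjusted p 0.00206), and the difference was called (-1.13 ± 0.19, adjusted p 0.0033).

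ERK output genes, which are induced by ERK activity, were all 14 lower in H1975 DMSO than in HCC44 DMSO. Of these, 12 were called (85.7%), beside 67.9% of all tested genes called in either direction and 31.6% called as lower. DUSP4 (-0.07) and FOSL1 (-0.12) were not called, and their groups overlapped. Between the lines, 70.6 to 82.4% of tested genes were called in the other lists, in either direction, so a high share was not particular to ERK output genes. DUSP6, an ERK phosphatase, was at 24.7 ± 6.3 and 137 ± 72 CPM and SPRY4 at 31.2 ± 5.3 and 125 ± 5.1 CPM in H1975 and HCC44. With ACBI1, 2 rose and 4 fell in H1975 (42.9% called, beside 31.3%) and 4 rose and 4 fell in HCC44 (57.1%, beside 34.9%). DUSP4, another ERK phosphatase, fell in H1975 (-1.51 ± 0.15, adjusted p 9.85e-05). Its fall in HCC44 was -1.24 ± 0.15 (adjusted p 0.000178). SPRY1, a feedback inhibitor, rose in H1975 (1.34 ± 0.15, adjusted p 0.000137) and likewise in HCC44 (0.92 ± 0.15, adjusted p 0.000668). DUSP5 fell in H1975 (-0.72 ± 0.12, adjusted p 0.00107) and in HCC44 went from 226 ± 36 to 72.6 ± 8 CPM (-1.64 ± 0.12, adjusted p 5.52e-06). The ERK output genes thus moved in both directions within each line. DUSP6 shares 40.5% of its exon bases with the opposite strand.

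Of 20 other receptor tyrosine kinases, 17 were tested, with 3 rises and 3 falls in H1975 (35.3% called, beside 31.3% of all tested genes) and 7 rises and 6 falls in HCC44 (76.5%, beside 34.9%). FGFR4, a fibroblast growth factor receptor, rose in H1975 from 13.9 ± 0.5 to 34.5 ± 1.6 CPM (1.31 ± 0.17, adjusted p 0.000274). Its HCC44 level rose from 6.85 ± 0.94 to 26 ± 6.2 CPM (1.92 ± 0.17, adjusted p 2.22e-05). MERTK rose in both as well (0.94 ± 0.13, adjusted p 0.000469, and 1.31 ± 0.13, adjusted p 5.12e-05). AXL, a MERTK relative, fell in HCC44 from 394 ± 24 to 167 ± 13 CPM (-1.24 ± 0.22, adjusted p 0.00318). It was not called in H1975 (-0.39 ± 0.22, adjusted p 0.212), and the lines were not shown to differ (-0.85 ± 0.30, adjusted p 0.093). EPHA2 was higher in HCC44 DMSO (605 ± 1.5 CPM) than in H1975 DMSO (149 ± 6.1 CPM). With ACBI1 it fell in HCC44 to 354 ± 11 CPM (-0.77 ± 0.08, adjusted p 5.62e-05) and was not called in H1975 (0.18 ± 0.08, adjusted p 0.118). The difference in response was called (-0.95 ± 0.11, adjusted p 0.000524).

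**Figure D4:**
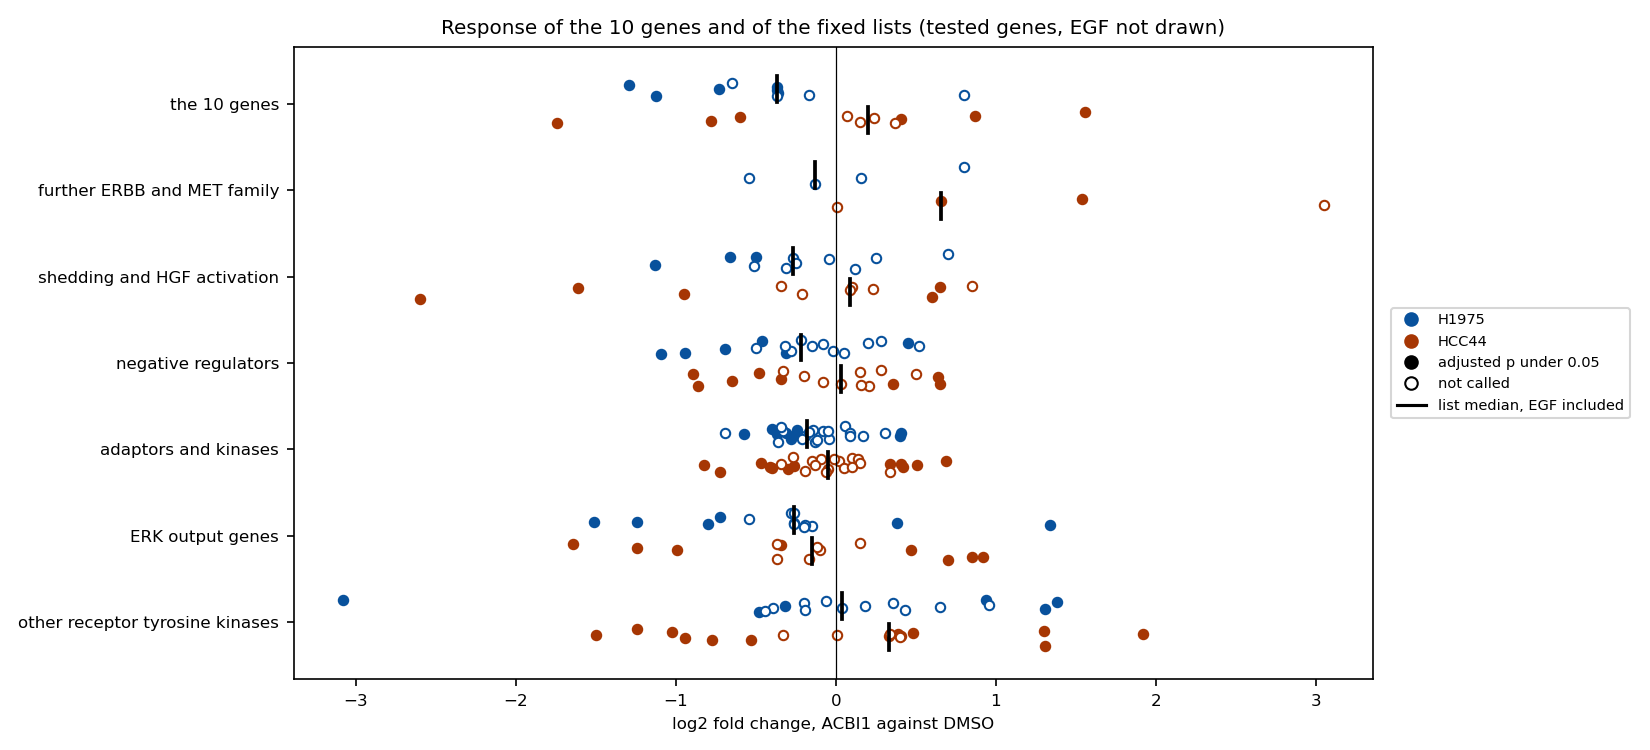
Log2 fold change for ACBI1 against DMSO (horizontal axis) of each tested gene of the 10 and of the 6 lists, in H1975 and HCC44; filled points have an adjusted p under 0.05 and black lines are list medians. EGF is not drawn, and its value counts in the median of its list. The 10 genes lie mostly below 0 in H1975 and on both sides of 0 in HCC44.

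Genes with the pattern most like EGFR, MET and AREG were found by the root mean square difference in log2(CPM + 0.5), centred on each gene's mean over the 8 libraries. For EGFR they were PACS1 (0.06), OCEL1 (0.08) and SOCS6 (0.08), and for MET they were RNF115 (0.04), ETV2 (0.05) and ENSG00000262429 (0.05). ETV2 and ENSG00000262429 were under 1 CPM in every group, where the added 0.5 flattens a pattern. The nearest to AREG were ENSG00000260793 (0.19), SLC38A2 (0.22), an amino acid transporter, and GJB7 (0.22). This distance grows with how much a gene itself varies, and AREG varied more over the libraries than EGFR and MET. The distances are therefore not comparable between the genes. SLC38A2 fell in H1975 (-1.15, adjusted p 6.79e-05) and rose in HCC44 (0.59, adjusted p 0.00206).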

How the data were processed

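RNA of 8 libraries was measured by sequencing in 4 groups of 2. The authors deposited raw counts of reads per gene, 1 table per library. The submitters' processing notes name TopHat2 2.1.1, HTSeq 0.11.0 and build hg38. Settings, strand and annotation are not given in the sources used here. The 5 summary rows of each table (14.3 to 15.8% of its total) were left out.

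Analysis used edgeR 4.0.16 in R 4.3.3: filterByExpr (minimum count 10), TMM factors, 1 mean per group, robust quasi-likelihood F-tests (two-sided, 4 residual degrees of freedom). Each SE was taken as |log2 fold change| over √F. The procedure was tested on simulated data. Replicates differed by more than sampling noise (chi-square per degree of freedom 21.7 to 43.5). Exon lengths, overlaps and positions came from GENCODE 29 (GRCh38).

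The members and lists were chosen with earlier results of these data known. Named from the lists were 7 set genes and some of the 2 largest rises and falls per list and comparison among called genes of at least 5 CPM. Some genes of the lists are not reported here. Alternatives were DESeq2 1.42.0, other scalings and filters, non-robust dispersion, the libraries compared alone, a replicate block, stricter thresholds and each library left out. Figures used matplotlib 3.10.9.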

Additional observations from a re-analysis of the deposited data

Results flagged for a closer look

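For 5 of the 10 genes, a test of the difference itself called unequal ACBI1 responses in H1975 and HCC44, beside 18.6% of all tested genes. The log2 difference, HCC44 minus H1975, was 1.99 for AREG (adjusted p 0.000361), 1.93 for EREG (adjusted p 2.56e-05), 1.35 for BTC (adjusted p 0.0181), 0.77 for ERBB2 (adjusted p 0.0132) and 0.60 for MET (adjusted p 0.0136). AREG and EREG stayed called under all 18 alternatives each, at 1.73 or more and 1.82 or more. ERBB2 lost its call only at the stricter thresholds, in 2 of 18. BTC lost its call in 4 of 18 and MET in 6 of 18, in each case with single libraries left out among them. With groups of 2 libraries, no check for a library far from the others was possible.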

How the results depend on the processing

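Of 629 values of single genes under the alternatives, 530 (84.3%) kept their direction and side of the threshold, 65 lost and 24 gained a call and 10 changed sign. The stricter thresholds among these alternatives reuse the main fit, so they can lose a call but cannot gain one or change a sign. For the other alternatives the cause was not tested. Genes called among the 10 in H1975 numbered 6, and 2 with library totals, at an adjusted p under 0.01 or at a change of at least 1 on the log2 scale. They numbered 2 at a change of at least 1 in HCC44, against 6. For the difference they numbered 2 at an adjusted p under 0.01 and 3 at a change of at least 1, against 5. Over all genes, the calls at a change of at least 1 were 9093 between the lines, 2652 in H1975, 3137 in HCC44 and 1983 for the difference, against 14477, 6663, 7438 and 3967, and at an adjusted p under 0.01 they were 3691, 4681 and 1654 in the last 3. With 1 library left out, the lone library of its group being assumed to vary like the others, 6 to 7 of the 10 were called between the lines, 2 to 3 in H1975, 5 to 6 in HCC44 and 3 to 7 for the difference. Over all genes the counts were then 12940 to 13397, 3690 to 4590, 4945 to 6629 and 2341 to 4134. Under library totals, unlike the stricter thresholds, calls over all genes in H1975 grew from 6663 to 7507 as those among the 10 dropped to 2. Over all genes, rises went from 3107 to 5427 and falls from 3556 to 2080, and the calls among the 10 were all falls.

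Signs changed for TGFA in H1975 with library totals (0.04), EPGN in H1975 without H1975 ACBI1 replicate 1 (-0.59), BTC in HCC44 without DMSO replicate 1 (-0.16), EPGN in HCC44 without ACBI1 replicate 1 (-0.30) and EGFR in HCC44 without ACBI1 replicate 2 (-0.21). In the difference, ERBB3 changed sign without H1975 ACBI1 replicate 1 (0.09), HCC44 DMSO replicate 1 (0.17) or HCC44 ACBI1 replicate 1 (0.10), and EPGN without H1975 ACBI1 replicate 1 (0.96) or HCC44 ACBI1 replicate 2 (0.03). None of these values was called. With 1 library left out, these results spanned -0.59 to 1.49 (EPGN in H1975), -0.30 to 0.83 (EPGN in HCC44), -0.16 to 0.33 (BTC in HCC44), -0.21 to 0.45 (EGFR in HCC44), and, for the difference, -0.38 to 0.17 (ERBB3) and -1.12 to 0.96 (EPGN).

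With the replicate number as a block, 7 of the 10 genes were called between the lines, 8 in H1975, 7 in HCC44 and 8 for the difference, while calls over all genes were 14004, 9103, 9533 and 6358. Deviations of same-numbered libraries correlated across genes at 0.3 in H1975 and 0.075 in HCC44, with no shared batch in the labels, so the numbers were not treated as pairs. Without length scaling, AREG and EREG made up 56.8 and 52.2% of the ligand sum in H1975 with DMSO and ACBI1, and 41.4 and 75% in HCC44, an alternative chosen after seeing the data. EPGN in H1975 rests on 1 to 5 counts per library.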
